A study of Danio rerio with 4 samples.

Results

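The fibroblast growth factors (FGFs) and their receptors were followed through the cell classes of the growing zebrafish ventricle in single-cell RNA sequencing data. All 40 genes whose name starts with fgf or fgfr followed by a digit were taken, out of 36351 genes in the count tables. The rule used names and no measured value, but it was set with earlier results of these data known. The 40 genes are 22 secreted ligands, 3 endocrine ligands, 7 intracellular FGF homologous factors (FHFs), 6 receptors and 2 genes, fgfr1op and fgfr1op2, that only share the name. Ventricles of WT fish of strain AB were pooled into 1 library per stage of coronary growth: initiation (10 mm body length, 1.5 months of age, 25 ventricles), establishment (14 mm, 2 months, 18 ventricles), expansion (18 mm, 2.5 months, 12 ventricles) and maturation (28 mm, 8 months, 5 ventricles). Values of the 4 libraries are given in that order throughout.

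Secreted FGFs bind receptor tyrosine kinases on neighbouring cells together with heparan sulphate, and the receptors pass the signal mainly through Ras and MAP kinase to ETS-family transcription factors of the etv group. The same pathway switches on its own inhibitors, such as the sprouty proteins and the phosphatase dusp6. Endocrine FGFs travel in the blood and need a klotho co-receptor, and FHFs are not secreted and instead bind voltage-gated sodium channels inside the cell. In the zebrafish heart, FGF signalling is known for its part in the recruitment of epicardial cells during regeneration.

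Levels were given as CPM, the UMIs of a gene for every 1000000 UMIs of a cell class in a library, where a UMI is a unique molecular identifier that stands for 1 captured transcript. The libraries held 115624753, 123557700, 128056006 and 161798583 UMIs, and 33503 barcodes had at least 2500 UMIs and 600 genes. Markers assigned 26739 of these barcodes to 14 classes, and each class's own marker list stood above its level in free RNA, measured in barcodes under 100 UMIs, in every library that held the class, as the gates require. Several markers of the endocardium, valve-type and coronary classes had been picked by the study on these libraries. Median UMIs per barcode were 13252, 12517, 5215 and 5524, so shares of barcodes with a UMI are given after thinning to 2500 UMIs. With 1 pool per stage, no test between stages was possible, and all intervals cover counting error only. Classes were compared by edgeR's quasi-likelihood test on UMIs summed per library and class, each class against the mean log level of the others with library as a block. The p-values, adjusted over 14465 genes, rest on the spread left among 39 sums after class and library (26 residual degrees of freedom). The sums of a library come from the same pool, and each of the 4 pools is another stage. This spread therefore mixes stage changes within a class with noise and is not a spread between replicate pools. Of the 40 genes, 27 had at least 50 UMIs in the classes and are given with values, and fgf23 and fgf6b had no UMI. The filter of the test, which asks for a level in a few sums, passed 18. A sparse gene can pass it on the class where it is high. This bears on fgf10a and fgf2 in the mesenchymal class, fgf24 in the epicardium and fgf3 and fgf17 in cardiomyocytes. Their p-values there are not independent of the filter, although these calls were kept without it.

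Over the 10 classes tested, the 18 genes gave 47 calls above the other classes and 18 below, at an adjusted p of 0.05. In smooth muscle 9 of 18 were higher, against 17.9% of all genes, and 1 was lower, against 3.97%. In the epicardium 8 were higher and 1 lower, against 25.6% and 6.53% of all genes, and in fibroblast-like cells 6 were higher and 0 lower, against 21.3% and 4.58%. In the mesenchymal class 6 were higher and 1 lower, against 13.1% and 8.09%. In cardiomyocytes 5 were higher and 3 lower, against 30.8% and 18.8%, in the endocardium 5 were higher and 1 lower, against 22.8% and 5.57%, and in valve-type endothelium 4 were higher and 1 lower, against 19.5% and 6.38%. In macrophages 1 was higher and 4 lower, against 17.9% and 21.1%. In T and NK lymphocytes 1 was higher and 3 lower, against 15.1% and 20.5%, and in red blood cells 2 were higher and 3 lower, against 25.6% and 24.9%.

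These contrasts depend on which classes form the average. A class without a UMI has no defined log level, and 10 of the 18 genes had such a class, and these 10 genes gave 34 of the 36 contrasts with an adjusted p of 1. The 3 blood classes were also left out, a choice made after seeing the data, which left 7 heart wall classes and 20 of the 40 genes tested. Some wall classes without a UMI remained, such as the epicardium for fgf3 and the mesenchymal class for fgf17. In this fit without blood 29 calls were higher and 18 lower. Cardiomyocytes had 5 higher and 6 lower of 20, against 33.4% and 25.1% of all genes, the endocardium 2 and 4, against 15.5% and 13.8%, and valve-type endothelium 2 and 4, against 11.6% and 11.7%. The epicardium had 5 and 1, against 17.6% and 11.1%, fibroblast-like cells 5 and 1, against 14.2% and 6.33%, the mesenchymal class 5 and 2, against 10.1% and 10.5%, and smooth muscle 5 and 0, against 10.9% and 3.92%. Several lower calls of receptors among the 10 classes were also lost without the expansion library. Without it there were 4 lower calls, against 18 with all libraries. fgfr1b, fgfr2 and fgfr3 were no longer lower in cardiomyocytes or red blood cells (adjusted p between 0.987 and 1). Nor were fgfr2 and fgfr3 in macrophages, or fgfr1b and fgfr2 in T and NK lymphocytes (adjusted p = 1). The log2 difference shrank in some of these and grew in others, so a lost call does not by itself mean a smaller difference. That of fgfr2 went from -1.78 to -0.394 in cardiomyocytes, but from -3.73 to -9.83 in macrophages and from -5.91 to -9.84 in T and NK lymphocytes. Without maturation fgfr3 was no longer lower in cardiomyocytes, T and NK lymphocytes or red blood cells (adjusted p = 1), and without initiation fgfr2 missed the threshold in red blood cells (adjusted p = 0.0509).

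Each receptor had its own leading classes. Smooth muscle and the mesenchymal class were highest in fgfr1a, connective and epicardial classes in fgfr1b and fgfr4, valve-type endothelium and fibroblast-like cells in fgfr2 and, up to expansion, smooth muscle in fgfr3, whereas cardiomyocytes were among the lowest wall classes for all 5. The sixth receptor gene, fgfr1bl, had 17 UMIs in all classes together.

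fgfr1a (LL0000010314), one of the pair of zebrafish genes for receptor 1, stood at 239, 109, 160 and 61.7 CPM in smooth muscle. In the mesenchymal class, gated by angptl7, rspo1, mgp, fmoda and thbs4b, it stood at 150.3, 131, 278 and 139 CPM. Both classes lay above every library of cardiomyocytes, which had 3.64, 0.491, 1.68 and 2.82 CPM, and of the endocardium, which had 17.5, 4.46, 10.4 and 4.69 CPM. The log2 difference from the other classes was 4.38 in smooth muscle (adjusted p = 1.52e-13) and 4.59 in the mesenchymal class (adjusted p = 8.6e-14), and without blood 2.72 (adjusted p = 2.25e-08) and 3.07 (adjusted p = 4.59e-09). Fibroblast-like cells were at 71.2, 28.5, 36.9 and 28.4 CPM and the epicardium at 38.5, 12.9, 41.7 and 38.2 CPM, and both were called higher among all 10 classes (log2 2.30, adjusted p = 2.61e-05, and 1.94, adjusted p = 0.000282) but not among the 7 wall classes (log2 0.48, adjusted p = 0.345, and 0.09, adjusted p = 0.898). Among the wall classes fgfr1a was lower in cardiomyocytes by a log2 difference of -3.25 (adjusted p = 2.31e-07), in the endocardium by -1.96 (adjusted p = 0.000148) and in valve-type endothelium by -1.14 (adjusted p = 0.0366). Pericytes, which passed the minimum of 20 barcodes only at expansion and maturation, had 68.4 and 36.3 CPM, and coronary endothelium, likewise seen at those stages only, had 14.2 and 13.4 CPM. Macrophages had no fgfr1a UMI.

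fgfr1b (LL0000010315), the other receptor 1 gene, had its highest levels among the tested classes in fibroblast-like cells, at 190.4, 83.7, 212 and 188 CPM, in the epicardium, at 164, 68.1, 191 and 187 CPM, and in the mesenchymal class, at 182, 89.7, 165 and 165 CPM. These ranges overlapped, so the 3 classes are not ordered among themselves. The log2 differences from the other classes were 3.24 (adjusted p = 6.27e-13), 3.08 (adjusted p = 1.51e-12) and 2.92 (adjusted p = 2.19e-10), and stayed at 1.83, 1.62 and 1.65 among the wall classes, with adjusted p-values of 3.37e-06, 1.47e-05 and 8.45e-05. Pericytes had 252 and 158 CPM at expansion and maturation. In the endocardium fgfr1b stood at 84.1, 52.3, 56.8 and 34.6 CPM and in smooth muscle at 96.0, 28.5, 61.7 and 111 CPM. Both were higher among all classes (log2 1.87, adjusted p = 2.1e-06, and 1.94, adjusted p = 4.64e-06) but not without blood (log2 0.26, adjusted p = 0.571, and 0.49, adjusted p = 0.324). Cardiomyocytes, at 0.634, 1.02, 4.31 and 1.01 CPM, lay below the free RNA of every library (7.91, 3.22, 24.9 and 8.88 CPM) and were lower by a log2 difference of -4.46 among the wall classes (adjusted p = 2.25e-10). Valve-type endothelium, at 24.3 CPM at initiation and 16.6 CPM at maturation, was also lower among them (log2 -1.38, adjusted p = 0.00401).

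fgfr2 (LL0000010319), which in vertebrates serves epithelial and mesenchymal cells through splice forms that these counts do not separate, stood highest in valve-type endothelium and fibroblast-like cells. Valve-type endothelium had 230.4, 169, 334 and 381 CPM and the endocardium 165, 94.6, 209 and 125 CPM, whereas coronary endothelium had 58.6 and 36.4 CPM at expansion and maturation. After thinning, 33.3%, 42.1%, 48.4% and 54.5% of valve-type barcodes held an fgfr2 UMI (unthinned 86.7%, 70.2%, 83.9% and 87.5%, at median depths of 13372, 9942, 10543 and 9827 UMIs), against 0.0847%, 0%, 2.38% and 4.55% of red blood cells (median depths 15123, 16324, 11088 and 8483 UMIs). The 0 at establishment stands for 1525 barcodes. Fibroblast-like cells had 342, 133, 305 and 169 CPM, and smooth muscle, the mesenchymal class and the epicardium ranged from 64.5 to 213 CPM. All 6 classes were called higher among the 10 classes, with log2 differences from 1.74 to 2.91, but among the wall classes only valve-type endothelium (log2 1.20, adjusted p = 6.95e-05) and fibroblast-like cells (log2 1.02, adjusted p = 0.000662) were. Cardiomyocytes had 12.8, 1.37, 10.5 and 6.44 CPM, below the free RNA at 11.1, 5.77, 46.7 and 15.4 CPM except at initiation, and were lower among the wall classes (log2 -3.49, adjusted p = 3.62e-11).

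fgfr3 (LL0000010320), known in vertebrates as a brake on growth of cartilage, had its highest level in smooth muscle at 3 of 4 stages, with 174, 57.1, 103 and 17.3 CPM, and at maturation the epicardium and fibroblast-like cells stood above it. These values rested on 484, 24, 252 and 7 UMIs, and the share of thinned smooth muscle barcodes with a UMI was 37.2%, 17.4%, 22.0% and 3.45% (unthinned 69.6%, 32.6%, 44.3% and 6.90%), against 0.0282%, 0.0656%, 0.595% and 0% of red blood cells. Smooth muscle was higher by a log2 difference of 3.79 (adjusted p = 3.49e-13), and by 2.36 without blood (adjusted p = 2.67e-07). Valve-type endothelium had 70.3, 26.4, 33.2 and 16.6 CPM, the epicardium 54.2, 15.5, 34.1 and 38.8 CPM, fibroblast-like cells 69.2, 13.8, 35.0 and 19.2 CPM and the endocardium 30.3, 11.6, 15.7 and 6.49 CPM. All 4 were higher among the 10 classes, with log2 differences from 1.31 to 2.64, and of them the epicardium was among the wall classes (log2 1.06, adjusted p = 0.0072). In the endocardium the sign turned without blood, to a log2 difference of -0.39 (adjusted p = 0.399). Cardiomyocytes (log2 -3.02, adjusted p = 2.07e-07) and the mesenchymal class (log2 -1.48, adjusted p = 0.0289) were lower among the wall classes.

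fgfr4 (LL0000010321), a receptor linked to epicardial cells in zebrafish heart regeneration, stood high in fibroblast-like cells, at 102, 91.1, 109 and 136 CPM. The epicardium had 96.5, 65.2, 60.6 and 36.0 CPM, below fibroblast-like cells in each library, with intervals that did not overlap at expansion and maturation. The log2 difference from the others was 5.15 in fibroblast-like cells (adjusted p = 7.03e-14) and 4.20 in the epicardium (adjusted p = 5.23e-11), and among the wall classes 2.84 (adjusted p = 3.35e-10) and 1.77 (adjusted p = 2.31e-06). The mesenchymal class had 113, 34.5, 58.3 and 42.9 CPM, above both at initiation and above the epicardium at maturation, and smooth muscle 55.0, 23.8, 47.8 and 17.3 CPM, and the mesenchymal class and smooth muscle were called with and without blood. The endocardium, at 19.8, 13.2, 13.8 and 6.54 CPM, was higher among all classes (log2 1.83, adjusted p = 0.011), but the sign turned without blood (log2 -0.78, adjusted p = 0.0504), and the adjusted p was 0.116 without establishment and 0.0634 without initiation. Cardiomyocytes had 0.396, 0.386, 1.53 and 0.805 CPM, below free RNA in every library (3.09, 2.93, 11.9 and 4.88 CPM), and were lower among the wall classes (log2 -4.34, adjusted p = 3.72e-10). Valve-type endothelium, at 8.49 CPM at initiation and 4.97 CPM at maturation, was also lower among them (log2 -1.97, adjusted p = 0.000246).

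**Figure D1:**
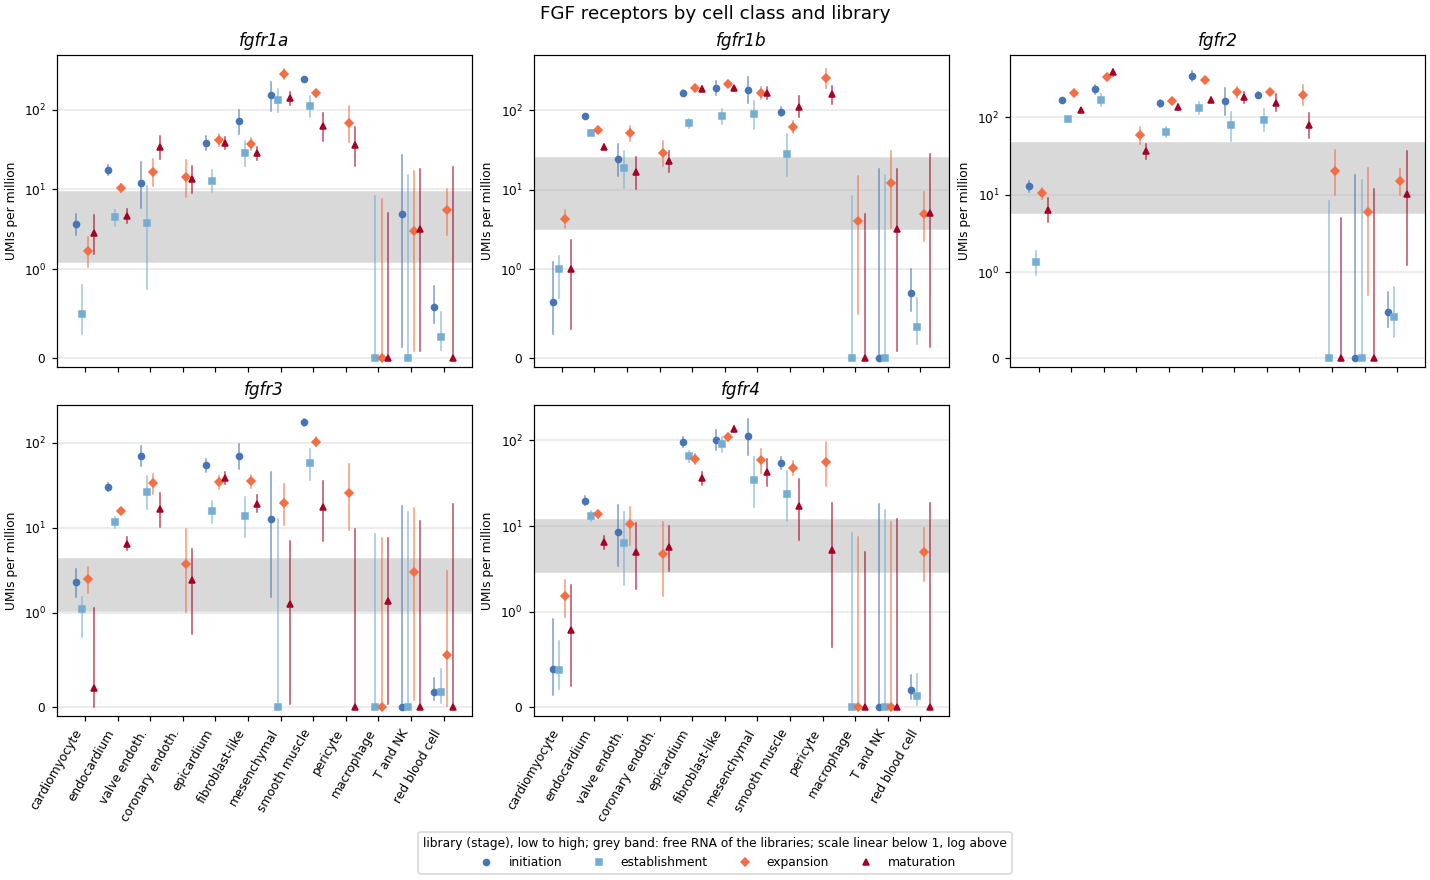
Levels of 5 FGF receptors by cell class (x axis) in CPM (y axis, linear below 1 and log above), 1 point per library with its exact Poisson 95% interval and a grey band for the range of the free RNA. fgfr1a stands at 61.7 to 239 in smooth muscle, fgfr2 at 169 to 381 in valve-type endothelium and fgfr4 at 91.1 to 136 in fibroblast-like cells, and cardiomyocytes lie in or under the band for all 5.

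Establishment was low for the receptors relative to initiation and expansion, although several, such as fgfr1b in the endocardium and fgfr3 in smooth muscle, were lower still at maturation. Set against the geometric mean of initiation and expansion, the median over receptors lay at log2 -1.23 in cardiomyocytes, -0.89 in the endocardium, -0.86 in valve-type endothelium, -1.37 in the epicardium, -1.26 in fibroblast-like cells, -1.08 in the mesenchymal class and -1.13 in smooth muscle. The medians over all genes were closer to 0, between -0.19 in cardiomyocytes and -0.64 in smooth muscle. The receptors below their class median numbered 4 of 4, 5 of 5, 3 of 3, 4 of 5, 4 of 5, 4 of 4 and 5 of 5 in these classes, and fgfr4 was the exception in fibroblast-like cells and the epicardium. In free RNA, fgfr1a, fgfr1b, fgfr2 and fgfr4 were also lower at establishment than at initiation and expansion. Cardiomyocytes lay in or under the range of free RNA for these receptors, and its part in their values was not tested. The low levels at establishment are a description of 1 library.

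Among the secreted ligands, cardiomyocytes held most UMIs of fgf17, fgf3, fgf7 and fgf1b. In CPM fgf18a, fgf24 and fgf10a were highest in connective or epicardial classes, and the remaining ligands were sparse or spread over classes. The 22 secreted ligands had 6075 UMIs in the classes in all.

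fgf17 (LL0000010289), a ligand of the FGF8 subfamily, stood at 13.1, 13.5, 14.8 and 12.3 CPM in cardiomyocytes, and 93.0% of its 875 class UMIs were there. The 4 libraries were within each other's range of counting error, and no library of another tested wall class exceeded 2.47 CPM (adjusted p = 6.7e-17). Red blood cells were also called higher (adjusted p = 0.000604) on 5, 9, 1 and 1 UMIs, or 0.0902, 0.356, 0.554 and 5.1 CPM, at or below the level in free RNA except at maturation (0.741, 2.75, 2.83 and 1.78 CPM). Globin genes took 54.1%, 63.4%, 49.0% and 36.1% of the UMIs of that class and its scaling factors in the fit ran from 0.129 to 0.692, and their part in the call was not tested. The scaling factors of cardiomyocytes ran from 0.401 to 0.729, and those of the other wall classes were 0.96 or more. Their part in the calls of cardiomyocytes was not tested either.

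fgf3 (LL0000010302), a ligand of the FGF7 subfamily in several classifications, was likewise held by cardiomyocytes, at 10.6, 8.81, 6.93 and 3.02 CPM, with 95.7% of 517 UMIs (adjusted p = 2.28e-13). Its cardiomyocyte libraries lay above every library of the other classes. fgf7, whose product in mammals acts on epithelia, had 6.81, 1.79, 2.70 and 2.01 CPM in cardiomyocytes and 85.2% of 216 UMIs there, and fgf1b, a ligand without a classical secretion signal, had 1.74, 1.19, 1.24 and 2.41 CPM and 81.7% of 104 UMIs. Neither passed the filter on low counts, and without that filter both were higher in cardiomyocytes, with adjusted p-values of 1.04e-27 and 2.51e-17. Its paralogue fgf1a differed: 70.5% of its 708 UMIs lay in red blood cells, at 8.26, 1.27, 4.99 and 0 CPM, against 0.741, 0.284, 0.177 and 0 CPM in free RNA, and cardiomyocytes had 4.52, 1.93, 1.60 and 2.01 CPM. Without the filter fgf1a was higher in both, with adjusted p-values of 3.71e-36 and 4.69e-11. In CPM, however, red blood cells lay below cardiomyocytes at establishment and maturation, and the 0 at maturation stands for 22 barcodes. The part of the scaling factors of red blood cells in their call was not tested.

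fgf18a (LL0000010290), a ligand known in vertebrates from skeletal and lung connective tissue, stood at 21.2, 18.4, 51.8 and 74.5 CPM in fibroblast-like cells, on 11, 20, 192 and 310 UMIs. Every one of these libraries lay above all libraries of the endocardium (6.76, 3.64, 8.05 and 10.5 CPM) and of valve-type endothelium (6.06, 3.78, 9.22 and 10.8 CPM), and the epicardium had 17.3, 4.84, 16.3 and 9.62 CPM. By UMIs the endocardium led, with 599 of the 1391 fgf18a UMIs in the classes, or 43.1%. The share of thinned fibroblast-like barcodes with a UMI was 4.76%, 3.77%, 11.5% and 13.7% (unthinned 12.7%, 10.4%, 19.0% and 25.7%), against 0%, 0%, 1.19% and 0% of red blood cells. The log2 difference was 5.07 in fibroblast-like cells (adjusted p = 1.83e-13), 3.18 in the epicardium (adjusted p = 5.87e-07), 2.52 in the endocardium (adjusted p = 4.27e-05) and 2.23 in valve-type endothelium (adjusted p = 0.00412), and valve-type endothelium lost the call without blood (log2 1.31, adjusted p = 0.143) and with 1 more marker required of each barcode (adjusted p = 0.246). Without blood, fibroblast-like cells (log2 4.38, adjusted p = 2.12e-10), the epicardium (log2 2.36, adjusted p = 0.000184) and the endocardium (log2 1.61, adjusted p = 0.0142) kept theirs. The mesenchymal class, with no fgf18a UMI in any library, was lower among the wall classes (adjusted p = 0.000954).

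fgf24, a ligand that in zebrafish is known from fin bud outgrowth, was mainly seen in the epicardium: 77.2% of its 123 UMIs were there, at 7.06, 9.04, 4.96 and 8.80 CPM, and no library of another class in the test exceeded 1.92 CPM (adjusted p = 1.17e-11). fgf10a, a mesenchymal ligand in fin and limb buds, had 6.26, 6.90, 16.7 and 6.31 CPM in the mesenchymal class on 1, 2, 12 and 5 UMIs (adjusted p = 1.63e-05). This class also carried fgf10a through the filter of the test. The epicardium had 0.392, 2.26, 2.92 and 4.12 CPM (adjusted p = 0.00524, and 0.0552 without blood, 0.0562 without establishment, 0.0611 without maturation and 0.0685 with DESeq2). Smooth muscle had 3.59, 0, 1.64 and 0 CPM (adjusted p = 0.0486), a call that was lost in 7 of its 9 alternatives, with adjusted p-values up to 0.197 with DESeq2. Its paralogue fgf10b had most of its UMIs in the endocardium, with 76.0% of 559 UMIs there at 5.54, 5.57, 6.66 and 3.05 CPM. Without the filter fgf10b was higher in the endocardium (adjusted p = 1.37e-08), in fibroblast-like cells at 5.77, 5.52, 5.39 and 3.60 CPM (adjusted p = 0.000153) and in the epicardium at 5.89, 1.94, 2.62 and 3.02 CPM (adjusted p = 0.0262). Among the wall classes the endocardium (adjusted p = 0.000251) and fibroblast-like cells (adjusted p = 0.00775) kept the call, and the epicardium did not (log2 0.75, adjusted p = 0.196).

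fgf18b, the paralogue of fgf18a, had 2.75, 3.55, 3.21 and 9.89 CPM in the epicardium and was higher there without the filter (adjusted p = 0.000234). It was also called higher in red blood cells without the filter (log2 1.96, adjusted p = 0.00489). fgf2, a broadly acting ligand in mammals, had 12.5, 0, 13.9 and 6.31 CPM in the mesenchymal class on 2, 0, 10 and 5 UMIs (adjusted p = 0.000138). fgf6a, whose mammalian counterpart is known from muscle, was spread over the wall: smooth muscle had 33.4, 7.14, 5.72 and 0 CPM on 93, 3, 14 and 0 UMIs, valve-type endothelium 9.70, 11.3, 8.60 and 0 CPM, the endocardium 9.21, 3.52, 1.42 and 1.30 CPM and cardiomyocytes 7.13, 2.95, 2.12 and 1.41 CPM. Its calls in smooth muscle (adjusted p = 0.000414), cardiomyocytes (adjusted p = 0.00427) and valve-type endothelium (adjusted p = 0.0189) were all lost without blood (adjusted p = 0.124, 0.541 and 0.805). The smooth muscle call was also lost without initiation (adjusted p = 0.119), and the valve call without establishment (adjusted p = 0.278) or expansion (adjusted p = 0.0591). fgf16 had 0, 0, 1.62 and 5.05 CPM in fibroblast-like cells (adjusted p = 0.00157 without the filter), and fgf22 had 0, 3.78, 3.69 and 4.14 CPM in valve-type endothelium (adjusted p = 5.3e-06 without the filter). Without the filter fgf22 was also higher in cardiomyocytes (log2 2.52, adjusted p = 0.0134).

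The remaining secreted ligands, fgf20a, fgf20b, fgf4, fgf5, fgf8a, fgf8b and fgf9, had between 1 and 26 UMIs each in the classes. Of the endocrine ligands, fgf19 had 11 UMIs, fgf23 none and fgf21, a metabolic hormone in mammals, 76. Valve-type endothelium held 27 of the 76 fgf21 UMIs, on 1, 4, 9 and 13 UMIs or 1.21, 5.04, 5.53 and 10.8 CPM, and the endocardium stayed between 0.0587 and 0.449 CPM. fgf21 was higher in valve-type endothelium without the filter (adjusted p = 4.92e-10) and among the wall classes (log2 3.06, adjusted p = 0.000918). The fit without blood used the filter, and a gene as sparse as fgf21 can pass it on the class where it is high. Its p-value among the wall classes may therefore not be independent of the filter and is not separate evidence for the call. Without the filter, the share of all genes called higher was 23.2% in cardiomyocytes, 12.5% in the endocardium, 8.32% in valve-type endothelium, 12.8% in the epicardium, 10.8% in fibroblast-like cells and 25.2% in red blood cells.

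**Figure D2:**
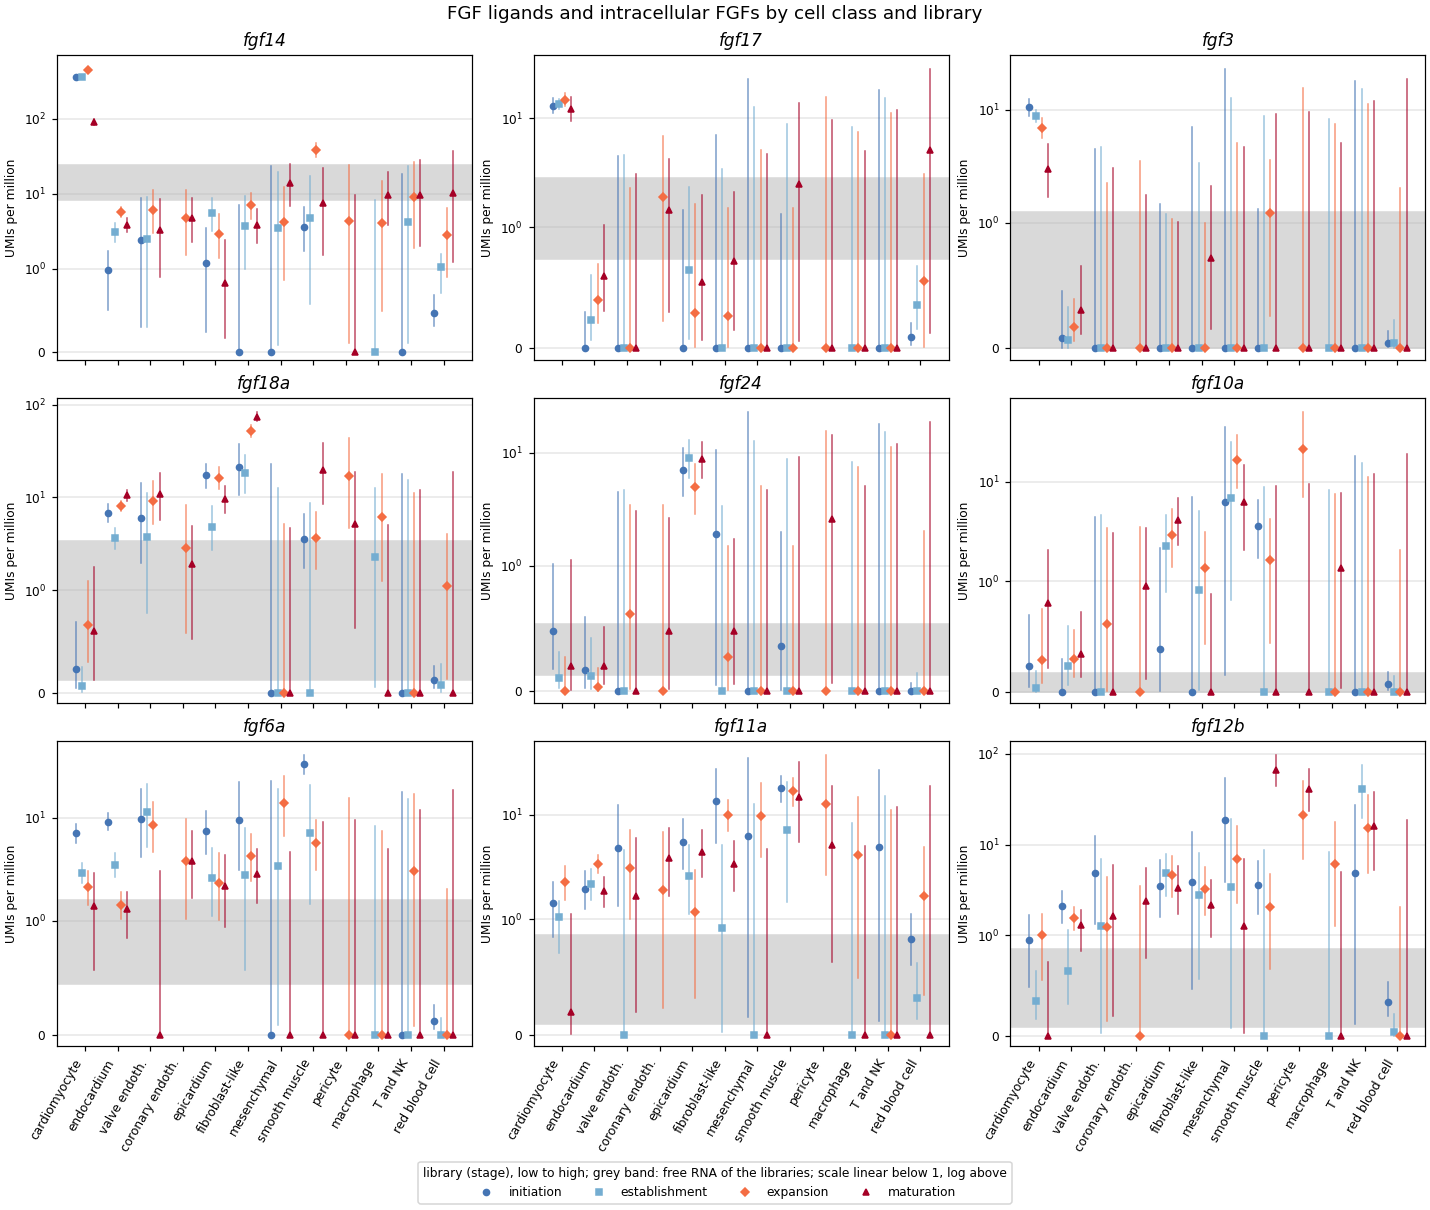
Levels of 6 ligands and 3 FHFs by cell class (x axis) in CPM (y axis, linear below 1 and log above), 1 point per library with its exact Poisson 95% interval and a grey band for the range of the free RNA. fgf14, fgf17 and fgf3 stand highest in cardiomyocytes, fgf18a in fibroblast-like cells and fgf24 in the epicardium, and the single high smooth muscle point of fgf12b is the maturation library at 66.7.

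The FHF fgf14 (LL0000010287), a partner of voltage-gated sodium channels, was a cardiomyocyte gene. It stood at 364, 361, 447 and 90.7 CPM in cardiomyocytes, which held 97.2% of its 22081 class UMIs, and the lowest of these libraries lay above the highest library of any other class, 38.4 CPM in smooth muscle at expansion. After thinning, 41.5%, 42.9%, 51.2% and 13.2% of cardiomyocyte barcodes held a UMI (unthinned 69.2%, 71.5%, 68.2% and 24.9%, median depths 10642, 14512, 6097 and 5141 UMIs), against 0.0282%, 0.131%, 1.19% and 4.55% of red blood cells. The log2 difference was 7.28 (adjusted p = 3.02e-24). The 38.4 CPM in smooth muscle came from 94 UMIs in 32 of 327 barcodes, and the cardiomyocyte marker list stood at 4101 CPM in that class and library, against 29971 CPM in its free RNA. The endocardium and the epicardium lay below free RNA (14.2, 21.7, 24.1 and 8.29 CPM): the endocardium had 0.978, 3.05, 5.70 and 3.84 CPM and the epicardium 1.18, 5.49, 2.92 and 0.825 CPM. Both were called lower (adjusted p = 0.0226 and 0.00745). The endocardial call was lost without any 1 of the 4 libraries (adjusted p between 0.0514 and 0.0761) and the epicardial call without expansion or maturation (adjusted p = 0.0704 and 0.0755).

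fgf13a (LL0000010285), another FHF, was also higher in cardiomyocytes, at 21.2, 3.33, 8.46 and 2.61 CPM (log2 3.75, adjusted p = 3.82e-09), but in few of them. When cardiomyocytes were divided, after seeing the data, by UMIs of myh6, the atrial myosin heavy chain of zebrafish, above free RNA, 392 of 5902 barcodes carried myh6 (295, 39, 41 and 17), although the tissue is labelled as ventricle. These held 468 of the 491 fgf13a UMIs, or 95.3%. fgf13a stood at 76.1, 169, 321 and 92.0 CPM in barcodes with myh6 and at 0.545, 0.393, 0.524 and 0 CPM in the other cardiomyocytes, so the groups did not overlap. fgf14 ran the other way at 3 of 4 stages, with 116, 121, 88.2 and 142 CPM in barcodes with myh6 and 457, 365, 456 and 89.2 CPM in the others. fgf3 had 0.581, 0, 0 and 7.08 CPM with myh6 and 14.4, 8.96, 7.11 and 2.90 CPM without, and fgf17 had 5.81, 6.05, 2.94 and 0 CPM with and 15.8, 13.6, 15.1 and 12.6 CPM without. Barcodes with myh6 were most frequent among cardiomyocytes at initiation, where fgf13a was also highest in the class as a whole, and their part in the stage ratio of fgf13a was not tested.

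**Figure D3:**
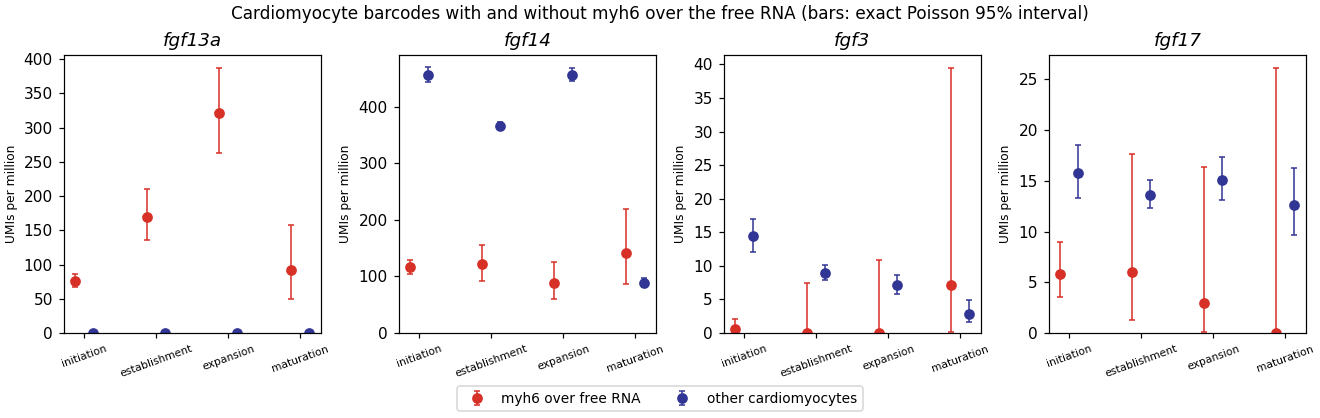
Levels of fgf13a, fgf14, fgf3 and fgf17 in CPM (y axis) by stage (x axis) in cardiomyocyte barcodes with myh6 above free RNA (red, left) and in the other cardiomyocytes (blue, right), with exact Poisson 95% intervals. fgf13a lies at 76.1 to 321 with myh6 and under 1 without, and fgf14 is higher without myh6 except at maturation.

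Of the other FHFs, fgf11a had 18.0, 7.14, 16.8 and 14.8 CPM in smooth muscle (log2 2.48, adjusted p = 8.81e-06, and 2.12, adjusted p = 0.000256, without blood). Fibroblast-like cells had 13.5, 0.920, 9.97 and 3.36 CPM, which overlapped the smooth muscle range. fgf12b had 3.59, 0, 2.04 and 66.7 CPM in smooth muscle, on 10, 0, 5 and 27 UMIs, and the 27 UMIs at maturation lay in 5 of 58 barcodes. Pericytes had 21.4 and 41.5 CPM of fgf12b at expansion and maturation. The smooth muscle call (log2 2.14, adjusted p = 0.00758) turned without the maturation library, to a log2 difference of -0.40 (adjusted p = 0.768), so 1 library decides it. In T and NK lymphocytes fgf12b had 1, 10, 5 and 5 UMIs (adjusted p = 0.00522), with the 10 at establishment in 7 of 40 barcodes, and without establishment the adjusted p was 0.181. fgf12a had 80 UMIs, 47 of them in the endocardium at 0.235 to 0.799 CPM, fgf11b had 36 and fgf13b 5.

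The genes that only share the name were spread over the classes. fgfr1op, which in humans encodes a centrosomal protein, was higher in macrophages at 40.7, 22.5 and 31.4 CPM from establishment on (log2 1.57, adjusted p = 0.000126), and was called higher in red blood cells at 7.79, 4.11, 7.76 and 5.1 CPM (adjusted p = 2.25e-07), against 4.32, 3.6, 5.66 and 3.11 CPM in free RNA. The endocardium stood above red blood cells in every library, at 8.80, 6.51, 8.39 and 8.59 CPM, and the part of the scaling factors of red blood cells in that call was not tested. Its lower calls in valve-type endothelium (adjusted p = 0.0178) and the mesenchymal class (adjusted p = 0.0303) were lost without blood (adjusted p = 0.187 and 0.275), and the valve call also without establishment or expansion (adjusted p = 0.123 and 0.0889), and the mesenchymal call without establishment, initiation or maturation (adjusted p = 0.0653, 0.127 and 0.238). fgfr1op2 was lower in smooth muscle, at 7.19, 7.14, 14.3 and 22.2 CPM (log2 -0.95, adjusted p = 0.0368, and 0.0907 without blood, 0.19 without establishment, 0.0891 without expansion and 0.217 without initiation).

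Stages were compared within classes by the ratio of maturation to initiation, named where it was at least 2-fold with intervals that did not overlap and at least 10 UMIs in the higher library. Of these ratios 24 were lower at maturation and 8 higher. In cardiomyocytes 1 of 15 genes was higher and 7 lower, against 5.27% and 36% of all genes, in the endocardium 2 and 5 of 20, against 18.5% and 17.8%, and in valve-type endothelium 1 and 1 of 7, against 11.3% and 16.1%. In the epicardium 2 were higher and 3 lower of 15, against 6.22% and 12.5%, in fibroblast-like cells 1 and 3 of 10, against 4.36% and 16.2%, in the mesenchymal class 0 and 1 of 5, against 5.97% and 24.8%, and in smooth muscle 1 and 4 of 12, against 9.87% and 13%. The median ratio of all genes was log2 -1.04 in cardiomyocytes and -0.65 in smooth muscle and between -0.21 and 0.17 in the other 5 classes. Mitochondrial UMIs moved with stage too, from 7.25% at maturation against 1.06% at initiation in the endocardium to 9.35% against 8.77% in cardiomyocytes.

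In smooth muscle, fgfr1a stood at 61.7 CPM at maturation and 239 CPM at initiation (ratio 0.259), fgfr3 at 17.3 and 174 CPM (ratio 0.0994) and fgfr4 at 17.3 and 55.0 CPM (ratio 0.314), while fgfr1b, at 111 and 96.0 CPM, differed by under 2-fold. The maturation values of fgfr1a and fgfr3 rest on 25 and 7 UMIs in 58 barcodes. The smooth muscle marker list was also lower at maturation, at 7017 CPM against 14210 CPM at initiation. fgf12b was higher at maturation, at 66.7 CPM on 27 UMIs against 3.59 CPM on 10 UMIs (ratio 18.5). fgf6a had 0 UMIs at maturation and 93 at initiation, and was at least 4.51-fold lower, taking 3 UMIs as the level that a count of 0 allows.

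In the endocardium the ratios were 0.268 for fgfr1a, 0.412 for fgfr1b, 0.214 for fgfr3, 0.330 for fgfr4 and 0.141 for fgf6a, while fgfr2 did not reach 2-fold. fgf14 and fgf17 were higher there at maturation, at 3.84 and 0.599 CPM, under their free RNA of 8.29 and 1.78 CPM. In fibroblast-like cells the ratio was 0.398 for fgfr1a, 0.495 for fgfr2 and 0.278 for fgfr3, whereas fgf18a was higher, at 74.5 CPM at maturation and 21.2 CPM at initiation (ratio 3.52). The ratio of fgfr4 was 0.373 in the epicardium and 0.381 in the mesenchymal class, and fibroblast-like cells had 136 CPM at maturation and 102 CPM at initiation, with overlapping intervals. In valve-type endothelium fgfr1a was higher at maturation, at 34.0 CPM on 41 UMIs against 12.1 CPM on 10 UMIs, and fgfr3 was lower (ratio 0.236). In the epicardium fgf18b (ratio 3.60) and fgf10a (4.12 CPM on 15 UMIs against 0.392 CPM on 1 UMI) were higher, and fgf13a (ratio 0.266) and fgf6a (ratio 0.295) were lower.

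In cardiomyocytes fgf14 stood at 90.7 CPM at maturation and 364 CPM at initiation (ratio 0.249), fgf3 at 3.02 and 10.6 CPM (ratio 0.284), fgf13a at 2.61 and 21.2 CPM (ratio 0.124), fgf7 at 2.01 and 6.81 CPM (ratio 0.295) and fgfr1op at 3.62 and 13.9 CPM (ratio 0.261), whereas fgf17, at 12.3 and 13.1 CPM, differed by less than its counting error. fgfr3 was also lower (ratio 0.0875), at 0.201 CPM on 1 UMI at maturation and 2.30 CPM on 29 UMIs at initiation. These fgfr3 levels lay in or under the range of its free RNA. fgf6a was lower too (ratio 0.197), on 7 and 90 UMIs. In contrast, fgfr1op2 was higher, at 23.1 CPM at maturation and 8.79 CPM at initiation (ratio 2.63). Relative to the median of all genes in the class, fgf14, fgf3, fgf7 and fgfr1op came within 2-fold, at 0.514, 0.586, 0.609 and 0.538. No other ratio of the 30 with UMIs in both libraries came within 2-fold, and none turned. Without mitochondrial UMIs 1 of the 30, fgfr2 in fibroblast-like cells, came within 2-fold.

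**Figure D4:**
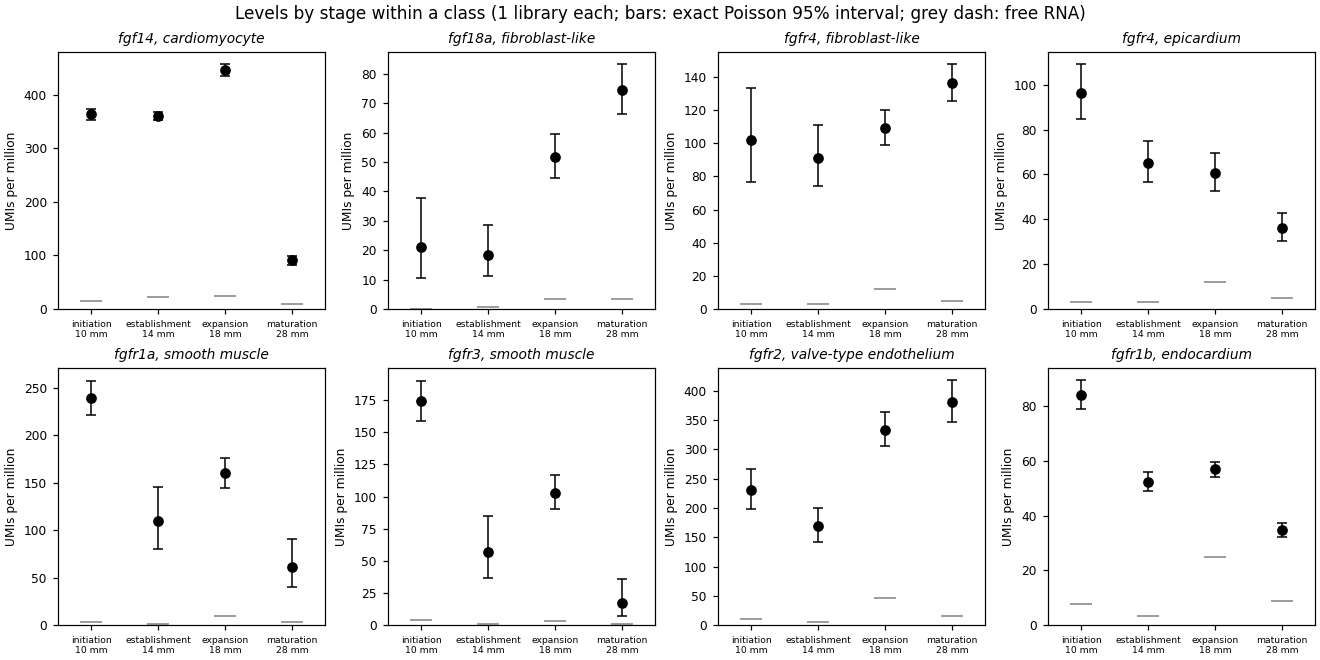
Levels of 8 gene and class pairs in CPM (y axis) by stage (x axis), 1 library each, with exact Poisson 95% intervals as bars and the free RNA of the library as a grey dash. fgf14 in cardiomyocytes lies at 361 to 447 at 3 stages and at 90.7 at maturation, fgf18a in fibroblast-like cells is highest at maturation (74.5), and fgfr4 is highest at maturation in fibroblast-like cells (136) and lowest at maturation in the epicardium (36.0).

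The wider pathway was followed in 5 lists, of which 33 genes passed the filter. Over the 10 classes they gave 97 calls higher and 60 lower. The epicardium had 19 of 33 higher and 5 lower, fibroblast-like cells 15 and 2, the endocardium 14 and 1, valve-type endothelium 13 and 3, cardiomyocytes 11 and 4, smooth muscle 8 and 2, macrophages 8 and 10 and the mesenchymal class 3 and 4, whereas T and NK lymphocytes had 1 and 13 and red blood cells 5 and 16. Without blood, 57 calls were higher and 40 lower. The shares of all genes called are those given above for each class. Cardiomyocytes, at 11 of 33 higher, lay near their share of 30.8%. Calls by class and by gene that follow come from all 10 classes, with blood in the average.

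Of the target transcription factors, etv4, etv5a and etv5b were tested. All 3 were higher in the epicardium and in fibroblast-like cells, with median log2 differences of 2.32 and 2.59. Of all genes 25.6% and 21.3% were higher in these classes. etv4 stood at 69.2, 39.6, 76.3 and 47.8 CPM in fibroblast-like cells and at 36.5, 27.8, 48.4 and 25.6 CPM in the epicardium, and T and NK lymphocytes had none. etv5b was lower in valve-type endothelium, at 7.28, 5.04, 7.37 and 0.828 CPM. Among the other wall classes, etv5b was higher in cardiomyocytes, etv4 and etv5b in the endocardium and etv4 in smooth muscle. Of all genes 30.8%, 22.8% and 17.9% were higher there. All 3 factors were lower in T and NK lymphocytes.

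Of 9 feedback inhibitors tested, 6 were higher in fibroblast-like cells (il17rd, spred1, spred2a, spred2b, spry2 and spry4). In valve-type endothelium 6 were higher, in the epicardium 5 and in the endocardium 4. The shares of all genes higher in these classes were 21.3%, 19.5%, 25.6% and 22.8%. Cardiomyocytes (dusp6 and spry4), smooth muscle (spred2a and spry2) and the mesenchymal class (spred2b and spry4) had 2 each, against 30.8%, 17.9% and 13.1%. spry4, an intracellular inhibitor of receptor signalling, stood at 347, 375, 497 and 573 CPM in the epicardium and at 189, 120.3, 93.8 and 29.6 CPM in cardiomyocytes. cbl, an E3 ligase that also serves other receptors, was higher in macrophages (log2 3.98, adjusted p = 4.01e-15), and spry2 was lower there (log2 -3.98, adjusted p = 9.01e-05). cbl was also higher in T and NK lymphocytes and red blood cells. It was lower in fibroblast-like cells, the epicardium, the mesenchymal class and cardiomyocytes, where 4.58%, 6.53%, 8.09% and 18.8% of all genes were lower. In red blood cells 6 were lower, spry1 most (log2 -4.64, adjusted p = 6.8e-06), against 24.9% of all genes. In T and NK lymphocytes 4 were lower, with spred2a at a log2 difference of -4.05 (adjusted p = 0.000429), against 20.5% of all genes. In cardiomyocytes 5 of 9 feedback inhibitors compared and 2 of 3 target factors were lower at maturation than at initiation and 0 higher, beside 36% of all genes lower and a class median of log2 -1.04. spry4 had 29.6 CPM at maturation and 189 CPM at initiation, dusp6 12.5 and 58.5 CPM, etv5a 3.22 and 25.7 CPM and etv5b 1.61 and 34.5 CPM.

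The transducers, which carry the signal of many receptors, had 6 of 11 higher in the endocardium, 5 in the epicardium and 1 (gab1) in cardiomyocytes. The shares of all genes higher there were 22.8%, 25.6% and 30.8%. Lower were grb2b and sos1 in the epicardium and gab2 and shc1 in cardiomyocytes, against 6.53% and 18.8% of all genes. Of the 4 co-receptors and binding proteins tested, 3 each were higher in valve-type endothelium and the epicardium. Cardiomyocytes (fgfrl1a and flrt2), the endocardium, fibroblast-like cells and smooth muscle had 2 each and the mesenchymal class 1. Of all genes 19.5%, 25.6%, 30.8%, 22.8%, 21.3%, 17.9% and 13.1% were higher in these classes, in that order. Lower were fgfrl1b, a receptor without a kinase domain, in macrophages (adjusted p = 0.00752) and fgfrl1a in T and NK lymphocytes (adjusted p = 0.000192). So were flrt2 in red blood cells (adjusted p = 0.000535) and flrt3 in cardiomyocytes (log2 -2.60, adjusted p = 5.93e-05). Of all genes 21.1%, 20.5%, 24.9% and 18.8% were lower there. Other lower calls in blood classes were those for etv5a and frs2a in red blood cells (log2 -2.65 and -3.83), for gab1, grb2a and etv4 in T and NK lymphocytes and for etv5b and ptpn11b in macrophages (log2 -3.49 and -2.59). In macrophages etv4 and etv5a (log2 2.32 and 1.58) and the transducers gab1, grb2b and ptpn11a were higher.

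Of the sodium channel partners of FHFs, 5 of 6 tested were higher in cardiomyocytes (scn2b, scn3b, scn4ab, scn4ba and scn5lab), with a median log2 difference of 3.52, and 0 lower, against 30.8% and 18.8% of all genes. In the epicardium scn2b, scn4ab and scn4ba were higher and scn5lab lower (median log2 1.28), against 25.6% and 6.53% of all genes. scn5lab was also higher in smooth muscle, scn4ab in red blood cells, scn8aa in macrophages and scn3b in fibroblast-like cells. scn4ba, a channel beta subunit gene, stood at 640.2, 547, 577 and 273 CPM in cardiomyocytes (log2 7.19, adjusted p = 1.08e-24). scn5lab, the counterpart of the main cardiac channel of mammals, stood at 205, 248, 192 and 22.1 CPM (log2 6.53, adjusted p = 1.28e-22), and the beta subunit gene scn3b at 135, 156, 275 and 273 CPM (log2 4.94, adjusted p = 2.2e-19). At maturation scn5lab and fgf14 were both below their levels at initiation in cardiomyocytes, and scn3b was above it. scn4ab was lower in valve-type endothelium (log2 -3.97, adjusted p = 0.0484).

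The genes most like each FGF gene in level over the 46 sums of class and library, by Pearson's r of log2 CPM with 10 added, are given as a description, since all sums share 4 libraries. For fgf14 they were led by myom1b (r = 0.95), fgf3 (0.948), MGAT5B (0.946) and obscnb (0.944), for fgf3 by MGAT5B (0.984) and tmem182a (0.976) and for fgf17 by myh7bb (0.942) and myom2a (0.933). For the receptors they were lsp1 (0.949) and MDFI (0.924) beside fgfr1a, phldb2a (0.947) and col1a2 (0.925) beside fgfr1b, glis2b (0.949) and boc (0.943) beside fgfr2, gpc6a (0.896) beside fgfr3 and npr2 (0.900) beside fgfr4. fgf18a was closest to clec11a (0.894) and c4 (0.881). myh6 stood among the 5 nearest genes of fgf7 (0.883). Within cardiomyocytes, however, fgf7 had 5.81, 12.1, 0 and 0 CPM in barcodes with myh6 and 7.19, 1.61, 2.77 and 2.07 CPM in the others. For fgf6a the nearest was fgfr3 (0.729), and for fgf13a it was CU929145.2 (0.659), with apcdd1l (0.648) next.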

How the data were processed

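The authors deposited untransformed UMI counts of every gene and barcode in 4 libraries, made with a 10x 3′ kit from 1 pool of ventricles per stage and before any selection of cells. Per the labels the reads were counted with Cell Ranger 6.1.2 against GRCz11, and the file headers name version 7.1.0. Whether intronic reads were counted is not given in the sources used here. Such reads would change all counts. 3′ counts do not separate splice forms.

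Barcodes with at least 2500 UMIs and 600 genes were kept (6932, 6663, 12296 and 7612 from initiation to maturation), and 9 to 32 barcodes were shared between pairs of libraries. A marker was positive where its UMIs exceeded those expected from free RNA (barcodes under 100 UMIs, 4.18% to 8.55% of all UMIs) with a Poisson tail under 0.01. A barcode joined a class with enough positive markers: 5 for cardiomyocytes, 4 for endocardium, coronary endothelium and epicardium, 2 for the mesenchymal class and 3 for the others. These numbers were set after seeing marker genes only. For the endocardium the 4 were counted over its own list and the pan-endothelial list together, with a marker from each list. That class can therefore hold endothelial barcodes with few endocardial markers. Valve-type and coronary endothelium needed a pan-endothelial marker besides their own. Left out were 1130 barcodes, 6.67% of UMIs, that passed the gates of several lineages or were not settled between classes of the same lineage. They may include doublets, and no doublet caller was run. Another 5634, 9.46% of UMIs, passed no gate. No FGF gene was a marker. The names vmhc and mmp13a.1 of the marker lists and fgfbp3, spry3 and scn5laa of the pathway lists were not matched.

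UMIs were summed per library and class (at least 20 barcodes, classes with 3 or more libraries, 39 sums) and tested with edgeR 4.0.16 in R 4.3.3 (filterByExpr, TMM, quasi-likelihood, 26 residual degrees of freedom), with Benjamini-Hochberg adjustment per contrast. This fit gives no standard error. The scripts were tested on simulated data. Poisson and Clopper-Pearson intervals are exact at 95%, and a count of 0 allows the level of 3 counts. The members and lists were chosen with earlier results of these data known. Genes with at least 50 UMIs in the classes are named, by role. Of each pathway list up to 4 genes with the largest called difference are named, and others that were named (target factors, inhibitors and FHF partners with values by library) were chosen after their values were seen. The nearest genes are the 5 with the highest r, for genes with at least 200 UMIs. The alternatives were DESeq2 1.42.0, RLE scaling, no filter, no library block, other limits on UMIs, genes, mitochondrial UMIs and markers, the top 5% of barcodes by UMIs removed, each library left out, a minimum of 20 UMIs for stages and, added after seeing the data, red blood cells or all 3 blood classes left out.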

Additional observations from a re-analysis of the deposited data

Results flagged for a closer look

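Maturation against initiation differed in direction between classes for a pair of genes, and with 1 library per stage these differences were not tested. For fgf14 the log2 ratio was 3.98 higher in the endocardium than in cardiomyocytes, and the endocardial level at both stages lay below free RNA. For fgfr1a the log2 ratio in valve-type endothelium was 3.39 above that in the endocardium, 2.81 above that in fibroblast-like cells and 3.44 above that in smooth muscle.

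Barcodes that passed no gate, which enter no comparison, held at least 50 UMIs of 18 of the genes. For 5 of these, fgfr1a, fgfr1b, fgfr2, fgfr4 and fgf10a, the level there lay above free RNA in each of the 4 libraries, with intervals that did not overlap, and for fgf21 it did in 1. fgfr2 had 3784 UMIs there, at 42.6, 48.1, 167 and 96.7 CPM, against 11.1, 5.77, 46.7 and 15.4 CPM in free RNA. fgfr1b had 2560 UMIs, at 43.3, 57.3, 100.1 and 80.7 CPM, against 7.91, 3.22, 24.9 and 8.88 CPM, and fgfr4 845 UMIs, at 10.2, 20.4, 32.7 and 28.4 CPM, against 3.09, 2.93, 11.9 and 4.88 CPM. fgfr1a had 1471 UMIs there, 27.7% of its UMIs in barcodes past the limits, at 32.1, 41.7, 55.7 and 44.7 CPM, against 3.34, 1.23, 9.38 and 3.26 CPM in free RNA. fgf10a had 57 UMIs there (30.5%), at 2.39, 3.20, 1.62 and 1.96 CPM, against 0, 0, 0.177 and 0.148 CPM. fgf21 had 52 UMIs there (36.4%) in 26 barcodes, with up to 10 in 1 barcode, and its level at maturation was 4.69 CPM (interval 3.29 to 6.50), against 0.296 CPM in free RNA.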

How the results depend on the processing

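Of the 65 calls of a gene in a class, 29 kept direction and threshold in every alternative in which they were tested. The number of calls above other classes, 47, was 29 without blood classes and 40 to 50 with 1 library left out, and the number below, 18, was 34 with DESeq2 and 4 to 14 with 1 library left out. For the pathway genes 97 calls above became 57 without blood classes and 80 to 94 with 1 library left out, and 60 below became 32 to 51 with 1 library left out. Between stages, the 8 ratios above became 5 with the top barcodes removed. The sign turned for fgf12b in smooth muscle without maturation (log2 -0.40, against up to 3.46 with another library left out) and, without blood classes, for fgfr3 (-0.39) and fgfr4 (-0.78) in the endocardium and fgfr2 in the epicardium (-0.0070). fgfr4 in the endocardium also missed the threshold with DESeq2 (adjusted p = 0.173). Leaving out 1 library ended between 6 and 15 calls, leaving out blood classes ended 18 and turned 3 of the 51 it tested, and each other alternative ended at most 5. Classes were compared within libraries through the library block. No paired analysis of stages was possible because the labels give no replicate numbers and each stage is 1 library. Depth limits the classes under 100 barcodes most, where several values rest on under 10 UMIs.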
